A study of Danio rerio with 16 samples.

Results

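Livers of wild-type zebrafish larvae that had been kept without food were compared at 7 dpf (days post fertilization) and at 6 dpf, to ask how the hepatic transcriptome moves as a fast goes on. The comparison takes 4 of the 16 RNA-seq libraries of the study, 2 from 7 dpf fasted wild type and 2 from 6 dpf fasted wild type. The libraries were chosen by their column names, every gene was kept, and no measured value entered the choice. The other 12 libraries belong to 6 dpf fasted Tg(fabp10a:GCaMP6s) larvae, 6 dpf fasted larvae with ethanol, 7 dpf fed larvae, fed 7 dpf larvae titled FedVentral, and normally kept larvae at 4 and 5 dpf. The transgene puts a calcium sensor under the hepatocyte promoter fabp10a. Each library pooled dissected livers of 30 larvae, and the labels do not say whether the 2 pools of a group came from separate clutches. P-values measure only the spread between pools of a group, and the model takes that spread from all 8 groups of the study. The labels say neither when food was withheld nor at what hour livers were taken. The 7 dpf larvae were also a day older, so a longer fast and a greater age cannot be told apart in this comparison.

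A fasting liver first releases glucose from glycogen, then makes glucose from amino acids and lactate and burns fatty acids, partly into ketone bodies. Falling insulin frees FOXO transcription factors, which act on gluconeogenic enzymes and on insulin-like growth factor binding proteins. Zebrafish larvae live on yolk at first and come to depend on food once the yolk is used up, and hepatocytes, the parenchymal cells of the liver, also supply the blood with lipoproteins, clotting factors and complement.

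The 2 libraries of 7 dpf fasted liver held 25366839 and 20679134 counts and those of 6 dpf fasted liver 24215932 and 20480078. Across genes, which are not independent replicates, log2 levels correlated at r = 0.987 between the 2 libraries of either group and at 0.966 to 0.969 between libraries of different groups. The defining hepatocyte transcript fabp10a, a fatty acid binding protein of liver, stood at 9039.9 and 7100.3 CPM (counts per 1000000, scaled by TMM) at 7 dpf and 7571 and 7761 CPM at 6 dpf. The hepatocyte markers as a list took 5.95 and 5.61% of counts at 7 dpf against 6.8 and 6.66% at 6 dpf. In whole liver, fewer cells of a type and less RNA per cell cannot be told apart.

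Of 17799 genes tested, 478 rose and 734 fell at 7 dpf, 6.81% in all (2.69% higher, 4.12% lower). Counts of called genes in a list are to be read beside the last 2 shares. With GCaMP livers as the 6 dpf group, an alternative given below, 582 of the 17799 genes were called higher and 913 lower. List counts against GCaMP livers are to be read beside these. A gene was called risen or fallen where the edgeR quasi-likelihood test gave an adjusted p under 0.1 and the fold change was at least 2. At an unadjusted p under 0.05 there were 4823 genes. Without the limit on fold, 3437 genes (19.3%) passed, and the median log2 fold change over all genes tested was -0.03. Of the 151 genes that averaged 1000 CPM or more over the 4 libraries, 4 rose and 1 fell, whereas of the 7147 genes between 1 and 10 CPM, 245 rose and 377 fell. The called genes included 80 with 0 counts in both 7 dpf libraries and 26 with 0 counts in both 6 dpf libraries. The smallest p that an exact permutation test of 2 libraries against 2 can give is 0.333, so single levels are given per library without a test of their own, and the tests come from a model over all 16 libraries.

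**Figure D1:**
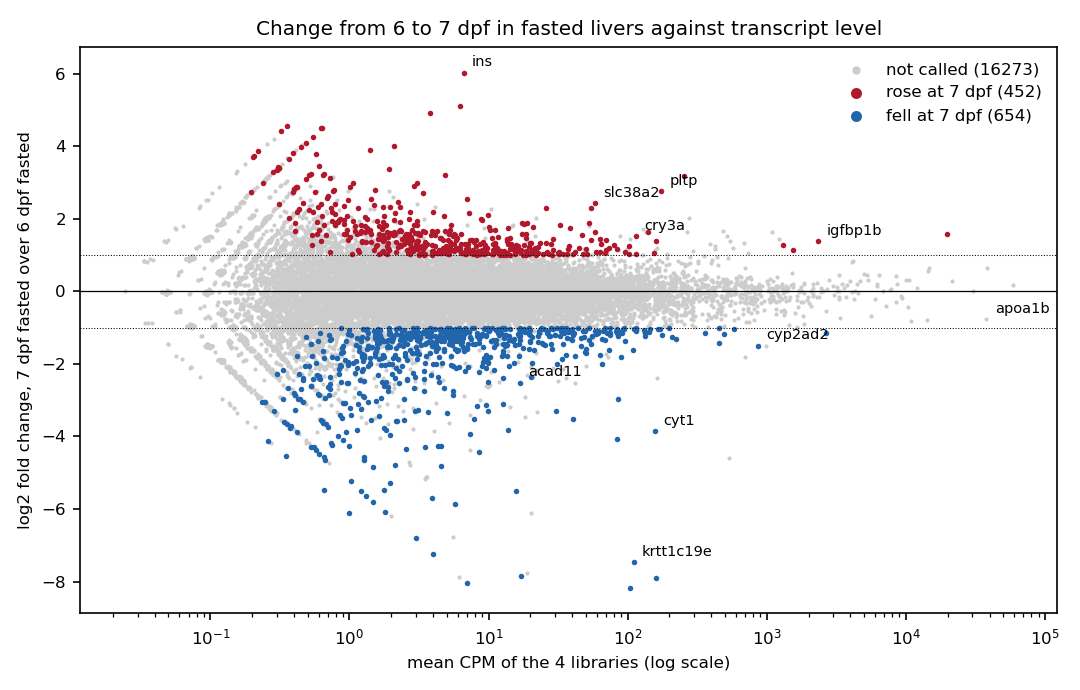
Log2 fold change of 7 dpf fasted over 6 dpf fasted liver (vertical axis) against the mean CPM of the 4 libraries (horizontal axis, log scale), 1 point per gene, dotted lines at 2-fold. Genes with 0 counts in either group, among them 26 that rose and 80 that fell, are left out. Called genes lie mostly below 100 CPM, as do most genes tested, and the spread narrows towards the abundant genes on the right.

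Among the genes that rose with the smallest p-values were an amino acid carrier, a clock repressor and secreted proteins. Here and below, ranks by p or fold change pass over repeated symbols and most clone or locus names. The sodium-coupled carrier of small neutral amino acids slc38a2 (ENSDARG00000045886) stood at 80.9 and 116 CPM at 7 dpf against 15.9 and 20.6 CPM at 6 dpf, a log2 change of 2.43 ± 0.18 (SE; adjusted p = 3.52e-07). Both 7 dpf libraries lay far above both 6 dpf libraries. The cryptochrome cry3a (ENSDARG00000069074) reached 166 and 173 CPM at 7 dpf, against 68.1 and 50.2 CPM at 6 dpf (1.52 ± 0.14, adjusted p = 1.20e-06). Angiotensinogen, agt (ENSDARG00000016412), the precursor of angiotensin secreted by hepatocytes, reached 2095 and 2165 CPM at 7 dpf, against 927 and 1017 CPM at 6 dpf (1.13 ± 0.12, adjusted p = 6.40e-06). It was the most abundant of the 8 genes that rose with the smallest p. The Rac inhibitor chn1 (1.86), dlc1 (1.4), the proteoglycan srgn (1.17), the matrix protein emilin1b (1.28) and the transcription factor gene zfhx4 (1.77) completed this group of 8.

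The largest fold changes among genes that reached 10 CPM included pltp (ENSDARG00000104495), the phospholipid transfer protein that moves phospholipid between lipoproteins. It stood at 336 and 272 CPM at 7 dpf and 42.6 and 47.1 CPM at 6 dpf (2.76 ± 0.33, adjusted p = 0.00059). The same transcript measured 1.73 and 1.6 CPM at 4 dpf, 2.52 and 2.14 CPM at 5 dpf and 2.31 and 2.48 CPM in fed larvae at 7 dpf, all below either fasted group. The transporter gene abcc6b.1 stood at 31.5 and 54.3 CPM at 7 dpf against 8.18 and 9.41 CPM at 6 dpf (2.29 ± 0.28), and rarres3l at 12.0 and 11.8 CPM at 7 dpf against 3.40 and 1.94 CPM at 6 dpf (2.15 ± 0.33). The collagen gene col8a1b had 15.0 and 9.08 CPM at 7 dpf and 0.0919 and 0.614 CPM at 6 dpf. Its call, at a log2 change of 5.11, was lost without replicate 1 at 7 dpf (4.69) or replicate 1 at 6 dpf (4.28). The clone-named gene BX537263.5 had 90.7 and 92.0 CPM at 7 dpf and 25.4 and 11.4 CPM at 6 dpf (2.31 ± 0.76, adjusted p = 0.0882), and its call was lost without any one of the 4 libraries (1.84 to 3.01).

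The 8 genes that fell with the smallest p-values included an acyl-CoA dehydrogenase, a cytochrome P450 and a glutathione transferase. ndrg2 (ENSDARG00000011170), a gene tied in mammals to growth arrest and differentiation, fell to 53.1 and 53.2 CPM at 7 dpf, against 165 and 163 CPM at 6 dpf (-1.63 ± 0.11, adjusted p = 1.55e-07). acad11 (ENSDARG00000045411), an acyl-CoA dehydrogenase, fell to 5.89 and 4.1 CPM at 7 dpf, against 31.9 and 25.5 CPM at 6 dpf (-2.52 ± 0.18, adjusted p = 1.93e-07), and stood at 140.1 and 120.1 CPM at 5 dpf and 144 and 126 CPM in fed larvae at 7 dpf. The cytochrome P450 cyp2ad2 (ENSDARG00000021172) fell to 470.1 and 437 CPM at 7 dpf, against 1347 and 1214 CPM at 6 dpf (-1.50 ± 0.12, adjusted p = 8.64e-07). In none of these 3, picked by their small p, did a library of one age reach the range of the other. The same held for 54.2% of all genes tested. The remaining members of the group were aplp1 of the amyloid precursor family (-1.75), the glutathione transferase gstp1 (-1.68), the hyaluronidase-type gene spam1 (-2.35), the glycine cleavage protein gcshb (-1.76) and decr1 (-2.10), which handles unsaturated fatty acids in mitochondria.

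The 8 largest falls among genes that reached 10 CPM included 3 keratins. pvalb8, a parvalbumin that binds calcium, had 0 counts in both 7 dpf libraries and 14.1 and 23.0 CPM at 6 dpf, at least 257-fold lower (against a floor of 3 counts over the 7 dpf group, 0.0713 CPM). fut9d, a fucosyltransferase gene, had 0 and 0.103 CPM at 7 dpf and 13.1 and 14.6 CPM at 6 dpf. The other 6 were the keratins krtt1c19e, krt17 and cyt1, the reductase genes dhrs13a.2 and hsd17b12a, and AL929237.1. Each of them stood at 21.5 CPM or less at 7 dpf and at 9.74 CPM or more at 6 dpf. The 3 keratins belong to the list of skin markers. krtt1c19e, krt17, dhrs13a.2 and AL929237.1 also lost their calls without any one library, fut9d and cyt1 without either 7 dpf library, and hsd17b12a without replicate 2 of either age.

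**Figure D2:**
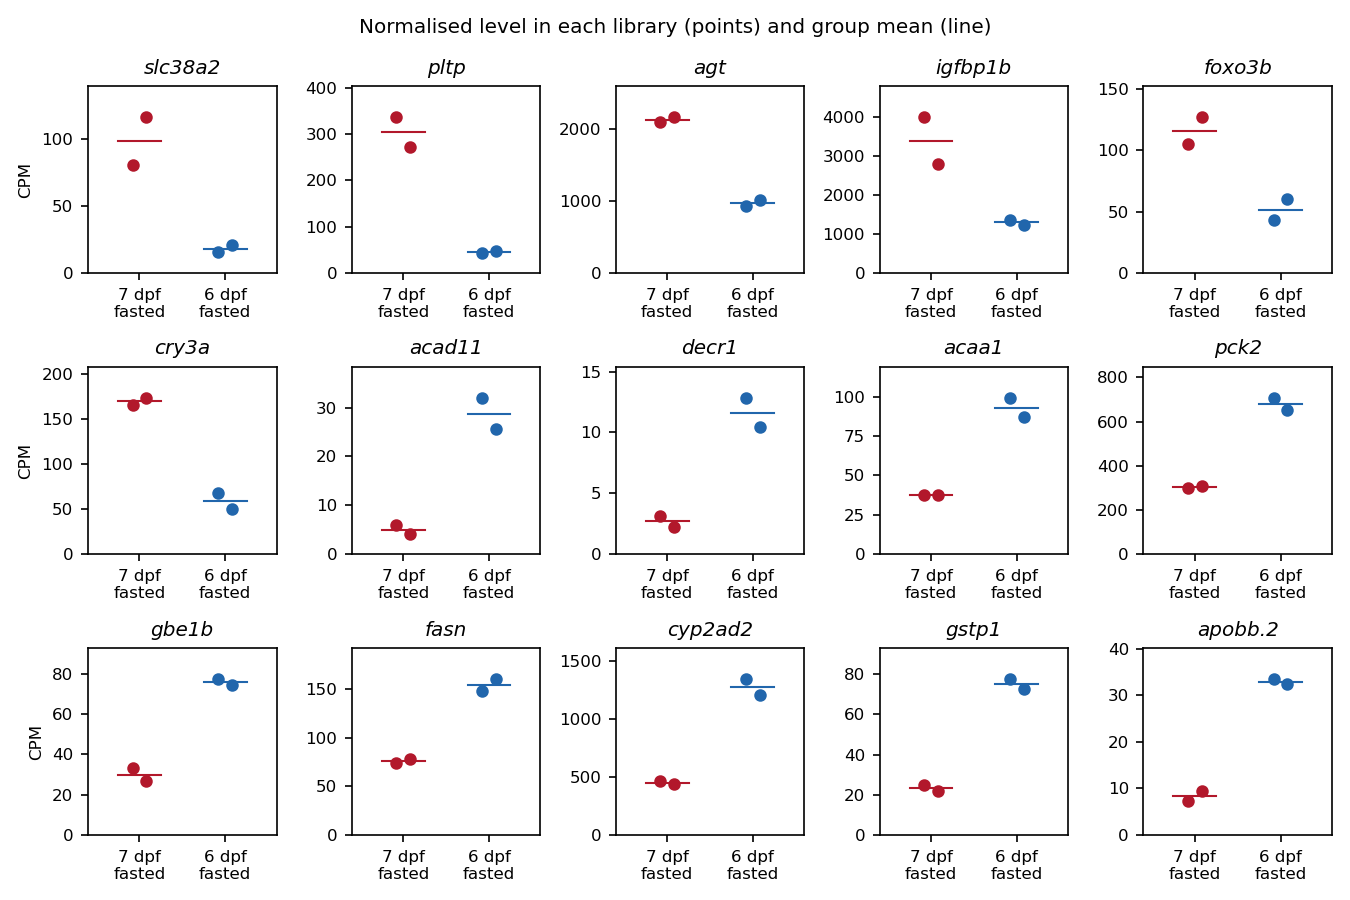
CPM of 15 named genes in each library (points) with the group mean (line), 7 dpf fasted left of 6 dpf fasted, each vertical axis starting at 0. The first 6 panels show genes that rose, with slc38a2 at 80.9 and 116 CPM at 7 dpf and 15.9 and 20.6 CPM at 6 dpf. The other 9 show genes that fell. All were picked from called genes, and in no panel do the 2 groups overlap, as for 54.2% of all genes tested.

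Transcripts that mark cells other than hepatocytes also differed between the 2 ages. Skin and red blood cell marker lists took a smaller share of counts in both 7 dpf libraries than in either 6 dpf library, and exocrine pancreas, islet and endothelial lists a larger one. The part of the endothelial and islet shares in the other results was not tested; for skin, exocrine pancreas and red blood cells the calls in a model with marker scores are given after these lists. Skin markers took 0.183 and 0.19% of counts at 7 dpf against 0.503 and 0.655% at 6 dpf, and 14 of 41 tested members fell while 0 rose (median log2 fold change -2.07). Of the 45 skin genes in the table krt95 alone had 0 counts in all 4 libraries. The basal keratin krtt1c19e stood at 0.974 and 1.54 CPM at 7 dpf and 187 and 252 CPM at 6 dpf (-7.46 ± 2.32, adjusted p = 0.0738), and the keratin cyt1 at 21.5 and 18.7 CPM at 7 dpf and 249 and 335 CPM at 6 dpf (-3.86 ± 0.88). The annexin anxa1b fell (-5.28 ± 0.78, adjusted p = 0.000184). The abundant keratins krt4 (-1.52 ± 0.67, adjusted p = 0.192) and krt91 (-1.80 ± 0.80, adjusted p = 0.197) were not called, whereas DESeq2 (adjusted p = 0.0611 and 0.0999), a fit without a filter on low counts and a fit to the 4 libraries alone called both as lower. Skin markers also took 0.409 and 0.447% of counts in the 6 dpf GCaMP livers. Fewer members of the skin list were called as lower with any 1 library left out, and a fit to the 4 libraries alone called 30.

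Exocrine pancreas markers took 0.766 and 1.57% of counts at 7 dpf against 0.519 and 0.412% at 6 dpf, and 4 of 31 rose (median 1.34). The digestive proteases prss1 (1275 and 2293 CPM at 7 dpf, 756 and 558 CPM at 6 dpf) and ctrb1 (1118 and 2207 CPM at 7 dpf, 605 and 469 CPM at 6 dpf) were the most abundant and were not called. The elastase cela1.3 stood at 8.72 and 8.77 CPM at 7 dpf and 1.06 and 0.818 CPM at 6 dpf (3.21 ± 0.76, adjusted p = 0.0181). Against GCaMP livers at 6 dpf, which had 1.17 and 1.34% of counts on this list, 0 of its members were called by edgeR, the list median was -0.19 and cela1.3 changed sign (-0.85). Fewer members of the list were called without replicate 2 of either age, and without a filter on low counts 24 were called. cela1.3 itself lost its call without either 6 dpf library (3.41 and 3.04). Of 11 tested islet markers 3 rose (median 2.00), and ghrl, insb and sst2, of 18 in the table, had 0 counts in all 4 libraries. Insulin, ins, had 10.5 and 15.7 CPM at 7 dpf and 0 and 0.409 CPM at 6 dpf, with 0 counts in the first 6 dpf library, and the somatostatin gene sst1.1 had 7.79 and 6.82 CPM at 7 dpf and 0.413 and 0.0511 CPM at 6 dpf. The hormone-processing protease pcsk2 was at least 13.7-fold higher at 7 dpf, with 0 counts at 6 dpf. The call of ins was lost without any one library (4.98 to 11.24), and that of pcsk2 without replicate 2 at 7 dpf (6.95) or either replicate at 6 dpf (7.56 and 7.57). No islet marker was called against GCaMP livers, and fewer were called without replicate 2 of either age or replicate 1 at 6 dpf. The list took 0.00261 and 0.0048% of counts at 7 dpf and 0.00113 and 0.00063% at 6 dpf.

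Of 29 endothelial markers 10 rose and 0 fell, and 28 had a positive log2 change (median 0.87). The 2 ages did not overlap for 27 of the 29, against 54.2% of all genes tested. The vascular receptor tie1 stood at 134 and 156 CPM at 7 dpf and 56.2 and 65.6 CPM at 6 dpf (1.25 ± 0.15, adjusted p = 2.20e-05). The vascular endothelial growth factor receptors flt1 (1.18 ± 0.15, adjusted p = 3.40e-05) and kdr (1.09 ± 0.16, adjusted p = 0.000223) rose, as did the adaptor she (1.3 ± 0.19), the junction protein rasip1 (1.14 ± 0.17) and the surface lectin clec14a (1.09 ± 0.27). The abundant receptor kdrl (0.95 ± 0.15, adjusted p = 0.000364) and the cadherin cdh5 (0.83 ± 0.15, adjusted p = 0.00107) changed by less than 2-fold and were not called. The list took 0.112 and 0.14% of counts at 7 dpf, 0.063 and 0.0728% at 6 dpf. Against GCaMP livers 10 members were called, without clec14a (0.97) and with kdrl (1.18). With the 3 marker scores 2 were called, and leaving out replicate 2 at 7 dpf also lowered the number called. clec14a was lost without replicate 1 of either age (0.98 at 7 dpf, 0.97 at 6 dpf), and kdr without replicate 2 at 7 dpf (0.84) or replicate 1 at 6 dpf (0.85).

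Of red blood cell markers 6 of 26 fell (median -1.27), among them the heme synthesis enzyme alas2 (1.15 and 0.205 CPM at 7 dpf, 2.39 and 2.76 CPM at 6 dpf; -1.86 ± 0.42, adjusted p = 0.00867). The others were the membrane skeleton gene add2, the embryonic globins hbbe1.1 and hbbe1.3, hemgn and nt5c2l1. The adult globins hbaa1, hbaa2, hbba1 and hbba2 had 0 counts in all 4 libraries. Globin copies share sequence, so their counts may be divided unevenly. The list took 0.0956 and 0.0989% of counts at 7 dpf against 0.132 and 0.123% at 6 dpf. Fewer members were called lower without replicate 2 of either age, and 11 against GCaMP livers. Of 22 stellate and fibroblast, 23 macrophage and 19 biliary markers 1 each rose, beside 2.69% over all genes, and the list medians were 0.01, 0.04 and -0.003. They were pdgfra (1.19 ± 0.24), cybb (2.12 ± 0.44) and onecut1 (1.41 ± 0.31). The collagen gene col1a1a was not called in the main fit. It was called lower without a filter on low counts (-2.38) and in the 4 libraries alone (-2.35). Of 14 neutrophil markers srgn was the one called. Of 39 skeletal muscle markers 0 were called by edgeR or DESeq2, and 1 had an unadjusted p under 0.05; with the 3 marker scores 13 were called higher. pdgfra lost its call without replicate 2 at 6 dpf (0.93). Of 31 intestinal, 17 nervous system and eye, and 13 kidney and ionocyte markers 1 each was called, beside 2.69% higher and 4.12% lower over all genes. fabp2 of the intestinal list fell (-1.12 ± 0.20), and fabp7a of the nervous system and eye list rose (2.88 ± 0.90). foxi3b of the kidney and ionocyte list fell, with 0 counts at 7 dpf and 1.65 and 1.33 CPM at 6 dpf, at least 21-fold lower. fabp2 was lost without replicate 2 at 7 dpf (-0.91) or replicate 1 at 6 dpf (-0.96), fabp7a without replicate 1 at 7 dpf (1.63) or replicate 2 at 6 dpf (1.98), and foxi3b without replicate 1 at 7 dpf.

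**Figure D3:**
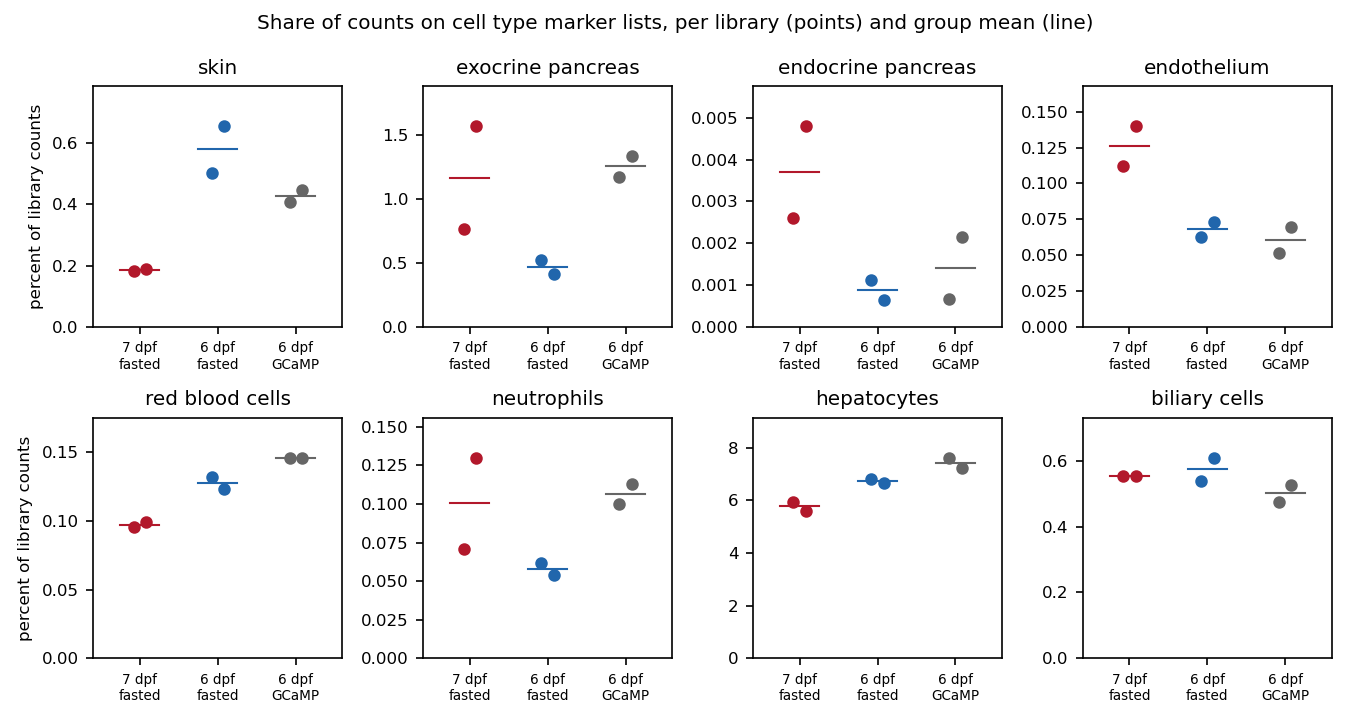
Percent of each library's counts on 8 marker lists, for 7 dpf fasted, 6 dpf fasted and 6 dpf fasted GCaMP livers (points are libraries, lines group means, axes start at 0). Skin markers took 0.183 and 0.19% at 7 dpf against 0.503 and 0.655% at 6 dpf, while endothelial markers took 0.112 and 0.14% at 7 dpf against 0.063 and 0.0728% at 6 dpf. The 2 exocrine pancreas values at 7 dpf lie apart from each other.

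Adding marker scores to the model ended many calls. A score is the mean log2 level of a marker list in a library, centred over the 16 libraries. The skin score was 0.241 and 0.219 at 7 dpf and 2.45 and 2.67 at 6 dpf, so it separates the ages and takes up part of any difference between them, and members of a scored list lose their own change by construction. The model with scores for skin, exocrine pancreas and red blood cells called 149 genes higher and 368 lower over all genes. It leaves fewer residual degrees of freedom than the 8 of the main model, so a call can be lost without a smaller change. Among calls lost, ins went from 6.02 without scores to 7.63 with them, and igfbp1b from 1.39 to 0.87. Of the 133 named genes called without scores, mid1ip1a and cela1.2 changed sign and were not called. A further 73 kept their sign but were no longer called. Beside members of the scored lists these included, from the top ranks, agt (0.94), abcc6b.1 (1.65), rarres3l (1.81), BX537263.5, pvalb8 (-7.09), fut9d (-4.25), dhrs13a.2, hsd17b12a and AL929237.1. In metabolism they were cpt2 (-1.35), pfklb (-1.48), gckr, scd, elovl2, gpam, abcb11a, cyp27a1.2, atf5a, slc38a3a, leap2, gstt2 (-1.84), gpx3 and hmox1a. In signalling, transcription and the clock they were igfbp1b (0.87), igfbp2b, foxo1b, foxo3b, socs1a, egr3, mycb, dusp2, dusp6, onecut1, nr1d4b, rorcb, roraa and arntl1a. In protein turnover, ribosome assembly and cell division they were ctss2.1, psmd10, dnajb9b, dnaja1, utp3, emg1, mad2l1, mcm10, gins3 and chaf1b. Of the markers outside the scored lists they were she, flt1, rasip1, kdr, pdgfra, cybb, ins, pcsk2, sst1.1, fabp2, fabp7a and foxi3b. With the skin score alone, an alternative added after seeing the data, 39 named genes kept their sign but were no longer called. Among them were pvalb8 (-7.38), igfbp1b, foxo1b, hmox1a and, though kept with the 3 scores, hspb1, polr1d, fth1b and foxa2. The lipogenic regulator mid1ip1a changed sign (0.11) and was not called.

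With the GCaMP livers as the 6 dpf group 4 of the 133 changed sign and were not called, namely mad2l1, cela1.3, cela1.2 and spink4. A further 42 kept their sign but were no longer called. They included zfhx4 (0.78), the metabolic and stress genes mid1ip1a, scd, gpam (-0.38), fasn, slc38a3a (-0.58), fth1b (-0.59) and hmox1a (0.23), and the regulators socs1a (0.08), igfbp1b, foxo3b, rorcb (0.92), arntl1a (0.53), mycb, onecut1 (0.68), ppargc1b and foxa2. Of protein turnover and ribosome assembly they were ctss2.1, dnajb9b, hsp90aa1.2, hsp70l, dnaja1, wdr75, tsr1, polr1d, utp3, emg1 and nop2, and of cell division ccna2 (0.31), ncapg, gins3 and chaf1b. The markers among them included clec14a (0.97), cybb (0.89), fabp7a (0.53), hbbe1.1, ins, pcsk2, sst1.1, cldna and krt1-c5.

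Of 42 genes of fatty acid oxidation and ketone body formation tested, 9 fell at 7 dpf and 0 rose, 38 had a negative log2 change, and the list median was -0.64, against -0.03 over all genes tested. These enzymes cut fatty acids into acetyl-CoA in mitochondria and peroxisomes. The mitochondrial decr1 (ENSDARG00000003869), needed for unsaturated fatty acids, fell to 3.14 and 2.26 CPM at 7 dpf, against 12.8 and 10.4 CPM at 6 dpf (-2.10 ± 0.18, adjusted p = 8.64e-07). hadh (ENSDARG00000030765), the dehydrogenase of short acyl chains, fell to 8.10 and 8.31 CPM, against 23.9 and 22.0 CPM at 6 dpf (-1.48 ± 0.13, adjusted p = 8.66e-07). The peroxisomal thiolase acaa1 (ENSDARG00000004687) fell to 37.8 and 37.5 CPM at 7 dpf, against 99.2 and 87.3 CPM at 6 dpf (-1.31 ± 0.13, adjusted p = 2.01e-06). For these 3, called with small p, the libraries of the 2 ages did not overlap. The same held for 35 of the 42 members, against 54.2% of all genes tested.

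The trifunctional protein subunit hadhaa (-1.20 ± 0.12), the isomerase eci1 (-1.27 ± 0.17) and the inner-membrane carnitine palmitoyltransferase cpt2 (-1.44 ± 0.26) also fell. The abundant member acat1 stood at 394 and 346 CPM at 7 dpf, against 604 and 541 CPM at 6 dpf. Its change had a small adjusted p but stayed under 2-fold, at -0.63 ± 0.12 (adjusted p = 0.0012). Members at the entry and control of the pathway, named after their values were seen, did not reach 2-fold. The outer-membrane transferase cpt1aa had -0.19 (adjusted p = 0.352), the nuclear receptor pparaa -0.17 (adjusted p = 0.649), pdk4 0.09 (adjusted p = 0.801) and the ketone body enzyme bdh1 0.08 (adjusted p = 0.818). Against GCaMP livers at 6 dpf 23 members fell, and with the 3 marker scores 11. Of all 17799 genes 913 and 368 fell in these 2 fits.

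Glycogen genes had a negative median too. Of 17 tested, 3 fell and 0 rose (median -0.41). The branching enzyme gbe1b (ENSDARG00000099524) fell to 33.2 and 26.6 CPM at 7 dpf, against 77.3 and 74.4 CPM at 6 dpf (-1.34 ± 0.14, adjusted p = 4.29e-06). The phosphorylase kinase subunit phkb fell (-1.23 ± 0.14, adjusted p = 1.38e-05), and pgm1, which interconverts glucose phosphates, lay at the limit (-1.0 ± 0.14, adjusted p = 8.85e-05). pgm1 lost its call without replicate 2 at 7 dpf (-0.90) or replicate 1 at 6 dpf (-0.87). Liver phosphorylase pygl, which releases glucose from glycogen, had 1468 and 1349.9 CPM at 7 dpf and 2446 and 2051 CPM at 6 dpf, a significant change of less than 2-fold (-0.67 ± 0.12, adjusted p = 0.000766). Glycogen synthase gys2 did not pass the test (-0.25 ± 0.11, adjusted p = 0.144).

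Of 19 gluconeogenesis genes 1 fell and 0 rose (median -0.17), a count near the shares over all genes (4.12% lower, 2.69% higher). The mitochondrial phosphoenolpyruvate carboxykinase pck2 (ENSDARG00000020956) fell to 299.5 and 308 CPM at 7 dpf, against 706 and 654 CPM at 6 dpf (-1.16 ± 0.11, adjusted p = 1.42e-06). Its cytosolic counterpart pck1 stood at 3908 and 4089 CPM at 7 dpf and 3522 and 3518 CPM at 6 dpf and did not pass the test (0.18 ± 0.59, adjusted p = 0.889). Of 33 genes of glycolysis and glucose uptake 2 fell, against 4.12% of all genes. They were the phosphofructokinase pfklb (-1.6 ± 0.24, adjusted p = 0.000854) and the glucokinase regulator gckr (-2.80 ± 0.81), whose levels lay below 1 CPM in all 4 libraries. gckr lost its call without replicate 1 at 7 dpf (-1.75) or replicate 1 at 6 dpf (-2.61). The abundant pklr (0.30) did not pass the test.

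In fatty acid and triglyceride synthesis 5 of 30 genes fell and 1 rose (median -0.17). With any one library left out fewer fell, the rise was lost, and the median was -0.29 to -0.08. Fatty acid synthase fasn had 74.3 and 78.5 CPM at 7 dpf and 149 and 161 CPM at 6 dpf (-1.02 ± 0.12, adjusted p = 1.58e-05), and the acetyl-CoA carboxylase acacb 57.0 and 66.3 CPM at 7 dpf and 126 and 126 CPM at 6 dpf (-1.03 ± 0.14, adjusted p = 6.30e-05). Both lay near the 2-fold limit. Without replicate 1 at 7 dpf neither was called (-0.98 and -0.93), and fasn was also lost without replicate 2 at 6 dpf (-0.96) and against GCaMP livers (-0.70). The elongase elovl2 (-1.17 ± 0.38), the lipogenic regulator mid1ip1a (-2.51 ± 0.86), the acyltransferase gpam (-1.15 ± 0.36) and, upward, the desaturase scd (1.93 ± 0.61) were called at lower levels. elovl2, mid1ip1a and scd lost their calls without any one library, and gpam without replicate 1 of either age (-0.55 at 7 dpf, -0.86 at 6 dpf). Of 15 genes of lipid droplets and lipolysis 0 were called by edgeR or DESeq2, and 3 had an unadjusted p under 0.05. The assembly protein mttp (-0.75 ± 0.11, adjusted p = 0.000125) fell short of 2-fold, and lipoprotein lipase lpl did not pass the test (-0.16 ± 0.11). Cholesterol and bile acid lists had counts near the shares over all genes (4.12% lower, 2.69% higher). Of 29 cholesterol genes 1 fell, nsdhl (-1.14 ± 0.21), whose call was lost without replicate 1 at 6 dpf (-0.95), and of 19 bile acid genes the transporter abcb11a rose (1.14 ± 0.28) and cyp27a1.2 fell (-1.09 ± 0.42). abcb11a was lost without replicate 2 of either age (0.91 at 7 dpf, 0.94 at 6 dpf) and cyp27a1.2 without any one library.

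Of 58 plasma protein genes tested 2 fell and 0 rose, a count near the shares over all genes (4.12% lower, 2.69% higher), although 45 had a negative log2 change, and the median was -0.22. The apolipoprotein B gene apobb.2 (ENSDARG00000075016) fell to 7.40 and 9.49 CPM at 7 dpf, against 33.4 and 32.4 CPM at 6 dpf (-1.97 ± 0.17, adjusted p = 9.07e-07), and the heme carrier hpxa fell (-1.44 ± 0.26, adjusted p = 0.00389). The abundant apoa1b, the main protein of high-density lipoprotein, had 31782 and 24396 CPM at 7 dpf and 48044 and 47816 CPM at 6 dpf (-0.77 ± 0.13, adjusted p = 0.000563). The iron carrier tfa (-0.83 ± 0.13) and apoa2 (-0.79 ± 0.16) likewise changed significantly by less than 2-fold, whereas fetub did not pass the test (0.18 ± 0.14). Of 33 complement genes 3 fell. They were c3a.2 (241 and 252 CPM at 7 dpf, 732 and 583 CPM at 6 dpf; -1.42 ± 0.21, adjusted p = 0.000659), cfhl1 (-1.82 ± 0.17) and cfhl2 (-1.24 ± 0.18), the last of which lost its call without replicate 1 at 7 dpf (-0.98). The paralogue c3a.1 was not called (-0.29 ± 0.12, adjusted p = 0.139), and reads may be divided unevenly between such copies. Of 36 acute phase and innate genes leap2 (-1.75 ± 0.54) and fth1b (-1.17 ± 0.32) fell, against 4.12% of all genes. leap2 was lost without replicate 1 at 7 dpf (-0.92) or replicate 2 at 6 dpf (-1.44), fth1b without replicate 1 of either age (-0.84 and -0.70).

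Amino acid breakdown and the urea cycle held 2 genes that fell among 60, near the 4.12% over all genes (median -0.24, 47 negative). Both belong to the glycine cleavage system, which splits glycine in mitochondria. gcshb (ENSDARG00000105187) fell to 14.6 and 18.4 CPM at 7 dpf, against 62.2 and 49.7 CPM at 6 dpf (-1.76 ± 0.15, adjusted p = 8.54e-07), and amt (ENSDARG00000010862) to 25.5 and 22.1 CPM, against 88.1 and 65.7 CPM at 6 dpf (-1.69 ± 0.15, adjusted p = 9.07e-07). The abundant tat, the first enzyme of tyrosine breakdown, did not pass the test (0.03), nor did bhmt (-0.42). Against GCaMP livers 8 members fell, beside 913 of all 17799 genes. Of 32 tested genes in the list of the amino acid response factor ATF4, 1 rose and 2 fell (median -0.04). The shares over all genes were 2.69% higher and 4.12% lower. slc38a2 rose, and atf5a (-1.33 ± 0.36) and the glutamine carrier slc38a3a (-1.02 ± 0.17) fell. Without replicate 1 at 7 dpf neither of these falls was called (-1.06 and -0.88), and slc38a3a was also lost without replicate 2 at 6 dpf (-0.77).

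In insulin, FOXO and growth factor signalling 4 of 43 genes rose and 1 fell (median 0.07). igfbp1b (ENSDARG00000038666), a binding protein that restrains insulin-like growth factors and is raised by fasting in other vertebrates, had 3989.7 and 2790.0 CPM at 7 dpf and 1360.3 and 1226 CPM at 6 dpf (1.39 ± 0.46, adjusted p = 0.0867). It measured 8.16 and 16.8 CPM at 4 dpf, 83.8 and 123 CPM at 5 dpf and 299 and 173 CPM in fed larvae at 7 dpf. Its call was lost without any one library (1.11 to 1.62) and against GCaMP livers (1.12). Its paralogue igfbp1a did not pass the test (3912 and 4208 CPM at 7 dpf, 4477 and 3778 CPM at 6 dpf; -0.02 ± 0.39). The transcription factors foxo3b (105 and 127 CPM at 7 dpf, 43.3 and 60.0 CPM at 6 dpf; 1.17 ± 0.23, adjusted p = 0.00403) and foxo1b (1.3 ± 0.37) rose, as did socs1a (1.52 ± 0.28), an inhibitor of cytokine signalling, and igfbp2b fell (-1.02 ± 0.13). foxo3b was not called without replicate 1 at 6 dpf (0.95) or against GCaMP livers (0.26), which had 98.2 and 95.1 CPM. foxo1b was lost without replicate 2 at 7 dpf (1.19) or replicate 1 at 6 dpf (1.08), and igfbp2b without replicate 2 at 7 dpf (-0.93). With the 3 marker scores 0 genes of the list rose and 2 fell, and fewer rose without replicate 1 at 6 dpf (list median 0.10).

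Of 48 autophagy genes 0 were called by edgeR or DESeq2 and 12 had an unadjusted p under 0.05 (median log2 fold change -0.000625). The libraries of the 2 ages did not overlap for 20 of the 48, against 54.2% of all genes tested. The kinase ulk2, which starts autophagy, had 401 and 423 CPM at 7 dpf and 223 and 239 CPM at 6 dpf. Its change did not pass the test (0.83 ± 0.39, adjusted p = 0.212), whose error is estimated over all 16 libraries. Lysosome, proteasome and endoplasmic reticulum lists had counts of calls below the shares over all genes (2.69% higher, 4.12% lower). Of 48 lysosome genes ctss2.1 rose (1.64 ± 0.48), of 49 proteasome genes psmd10 fell (-1.58 ± 0.40) and of 47 genes of protein folding in the endoplasmic reticulum dnajb9b fell (-1.08 ± 0.37), all 3 below 5 CPM. Each lost its call without replicate 1 at 7 dpf (1.28, -1.38 and -0.68), ctss2.1 also without either 6 dpf library (1.67 and 1.6), and dnajb9b likewise (-1.01 and -1.15). Heat shock proteins rose in 4 of 34 cases (median 0.35), namely hsp90aa1.2 (17.4 and 11.0 CPM at 7 dpf, 1.70 and 5.73 CPM at 6 dpf), hsp70l, hspb1 and dnaja1. Against GCaMP livers 1 of them was called. Fewer were also called without replicate 1 of either age, where the list median was 0.19 (7 dpf) and 0.22 (6 dpf). hsp90aa1.2, hsp70l and dnaja1 were lost without replicate 1 at 7 dpf (1.58, 1.18 and 0.99). hsp70l, hspb1 and dnaja1 were lost without replicate 1 at 6 dpf (1.405, 0.93 and 0.81). The constitutive chaperones hsp90ab1 (0.14) and hspa8 (0.30), the 2 most abundant members, changed by less than 2-fold.

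Ribosome biogenesis genes build ribosomal subunits in the nucleolus. Of 79 tested 7 fell at 7 dpf and 0 rose, 71 had a negative log2 change and the 2 ages did not overlap for 68, against 54.2% of all genes tested (median -0.54). The assembly factor tsr1 fell (-1.12 ± 0.15, adjusted p = 8.06e-05), and wdr75 stood at 14.6 and 21.9 CPM at 7 dpf and 42.0 and 41.9 CPM at 6 dpf (-1.20 ± 0.20, adjusted p = 0.000513). The RNA methyltransferases nop2 (-1.08 ± 0.17) and emg1 (-1.09 ± 0.27), the processing factor utp3 (-1.10 ± 0.20) and the polymerase subunit polr1d (-1.12 ± 0.32) fell as well. The calls moved with single libraries. Without replicate 1 at 7 dpf wdr75 (-0.94), nop2 (-0.79), emg1 (-0.95), utp3 (-0.87) and polr1d (-0.77) were lost. Without replicate 1 at 6 dpf tsr1 (-0.935), nop2 (-0.95), utp3 (-0.98) and polr1d (-0.63) were lost. More members were called without replicate 2 of either age. The list median was -0.516 and -0.668 without replicates 1 and 2 at 7 dpf, and -0.545 and -0.575 without replicates 1 and 2 at 6 dpf. Against GCaMP livers 0 were called (median -0.28). Of 80 cytosolic ribosomal proteins 0 were called by edgeR or DESeq2 and 0 had an unadjusted p under 0.05 (median 0.11).

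The 13 proteins encoded by the mitochondrial genome all had positive log2 changes (median 0.46) and took 10.9 ± 1.56% of counts at 7 dpf and 7.37 ± 0.495% at 6 dpf (SD, n = 2 each). None was called by edgeR or DESeq2, although 9 had an unadjusted p under 0.05, the same number as had an adjusted p under 0.1. mt-co1 had 42139.8 and 51454 CPM at 7 dpf and 29945 and 30306 CPM at 6 dpf (0.64 ± 0.13, adjusted p = 0.00296). Of 82 nuclear subunits of the same respiratory complexes 70 had negative changes (median -0.25). Of these 82, 0 were called by edgeR and 1, upward, by DESeq2, and 31 had an unadjusted p under 0.05. Without replicate 1 at 7 dpf the median of the nuclear list was -0.435. Against GCaMP livers 8 of the 13 mitochondrial genes rose and 7 of the 82 nuclear ones fell. Of all 17799 genes 582 rose and 913 fell in that comparison.

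Enzymes of xenobiotic metabolism and of the defence against oxidants included more falls than rises. Of 64 xenobiotic genes 9 fell and 0 rose (median -0.21), among them cyp2x9 (-2.0 ± 0.25), gstt2 (-1.79 ± 0.27), cyp2ad2, mgst1.1 (-1.36 ± 0.24), mgst3b (-1.3 ± 0.16) and cyp2p8 (-1.28 ± 0.12). The abundant cytochrome cyp3a65 did not pass the test (2759 and 2253 CPM at 7 dpf, 2485 and 2253 CPM at 6 dpf; 0.08 ± 0.14). Of 36 genes of oxidative stress and the NRF2 factor 6 fell and 1 rose (median -0.31). gstp1 (ENSDARG00000104068) fell to 24.9 and 22.0 CPM at 7 dpf, against 77.6 and 72.5 CPM at 6 dpf (-1.68 ± 0.13, adjusted p = 5.51e-07). The pentose phosphate enzyme tkta (-1.83 ± 0.27), the factor nfe2l2b (-2.65 ± 0.42), superoxide dismutase sod1 (-1.15 ± 0.16) and the secreted peroxidase gpx3 (-1.11 ± 0.18) fell, and the heme-degrading hmox1a rose (1.14 ± 0.23). sod1 was lost without replicate 1 at 6 dpf (-0.97), and gpx3 (-0.82) and hmox1a (0.98) without replicate 2 at 6 dpf. The mitochondrial carrier ucp1 was the most abundant member, with 24256 and 22612 CPM at 7 dpf and 20023 and 18381 CPM at 6 dpf, and was not called (0.29 ± 0.13).

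Circadian clock genes moved in both directions, as 4 of 47 rose and 5 fell (median -0.23). The repressor cry3a, the activator arntl1a (1.17 ± 0.30) and the nuclear receptors rorcb (1.76 ± 0.33) and roraa (1.36 ± 0.30) rose, while the repressors bhlhe41 (5.05 and 9.95 CPM at 7 dpf, 25.7 and 25.6 CPM at 6 dpf; -1.78 ± 0.22, adjusted p = 5.72e-05) and nr1d4b (-2.41 ± 0.58) fell. The remaining 3 that fell, named after their values were seen, were the output factors tefa (-1.14) and dbpb (-1.08) and the repressor ciarta (-1.11). A difference in the hour of collection was not tested. arntl1a was lost without replicate 2 at 7 dpf (0.85) and nr1d4b without replicate 1 at 7 dpf (-2.08). With the 3 marker scores 1 clock gene rose and 9 fell. Without replicate 2 at 7 dpf fewer rose and more fell, at a list median of -0.225.

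Of 47 immediate early genes, which respond within minutes to growth factors and handling, 4 rose and 0 fell (median 0.27). egr3 had 10.2 and 13.6 CPM at 7 dpf and 2.39 and 1.69 CPM at 6 dpf (2.54 ± 0.64, adjusted p = 0.0232), and the phosphatases dusp2 (1.48 ± 0.33) and dusp6 (1.29 ± 0.30) and the proto-oncogene mycb (1.89 ± 0.63) rose. Fewer were called with any 1 library left out, where the list median was 0.23 to 0.51. With the 3 marker scores 0 rose and 2 fell, and with DESeq2 7 rose. The abundant sgk1 did not pass the test (0.01). Of 44 liver transcription factor genes 2 rose and 1 fell, beside 2.69% higher and 4.12% lower over all genes. Those that rose were onecut1 and foxa2 (1.02 ± 0.31). The coactivator ppargc1b, which drives oxidative genes, fell to 21.6 and 23.7 CPM at 7 dpf, against 61.6 and 52.6 CPM at 6 dpf (-1.34 ± 0.14, adjusted p = 7.77e-06). foxa2 was lost without replicate 1 at 7 dpf (0.39) or either 6 dpf library (0.86 and 1.19), and ppargc1b against GCaMP livers (-0.72). Of 28 p53 and growth arrest genes 1 fell, near the 4.12% over all genes. It was cdkn1a (-1.05 ± 0.20), whose call was lost without replicate 1 at 7 dpf (-0.95).

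Cell division transcripts were scarce at both ages. Of 67 tested 9 rose at 7 dpf and 0 fell, with a median of 0.59, or 0.52 with the 5 genes at 0 in a group set at their bound. Among the 9, mad2l1 had 6 counts at 7 dpf and 0 at 6 dpf, a bound of 1.96-fold, under the limit of 2. Its call was lost with library size alone, halved counts, a limit of 0.05, a replicate block or any one library left out. The list took 0.0166 ± 0.00311% of counts at 7 dpf and 0.0125 ± 0.000141% at 6 dpf (SD, n = 2 each). The ribonucleotide reductase subunit rrm1, which supplies DNA precursors, had 5.76 and 8.31 CPM at 7 dpf and 3.12 and 2.76 CPM at 6 dpf (1.25 ± 0.20, adjusted p = 0.000312). The replication factor mcm10 (0.886 and 1.74 CPM at 7 dpf, 0.184 and 0.102 CPM at 6 dpf) and the cyclin ccna2 (0.620 and 0.513 CPM at 7 dpf, 0 and 0.102 CPM at 6 dpf) were at 6 dpf near the floor of 3 counts, 0.133 to 0.154 CPM per library. The replication clamp pcna, with mcm7 one of the 2 most abundant members, had 14.8 and 20.2 CPM at 7 dpf and 11.1 and 10.4 CPM at 6 dpf, a significant change of less than 2-fold (0.70 ± 0.16, adjusted p = 0.00728). Against GCaMP livers 2 members rose and 1 fell (median 0.11), with the 3 marker scores 2 rose, and in a fit to the 4 libraries alone 4 of the 43 tested there. DESeq2 called 11 higher, and a fit without a filter on low counts 14. With 1 library left out the list median was 0.37 to 0.85.

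**Figure D4:**
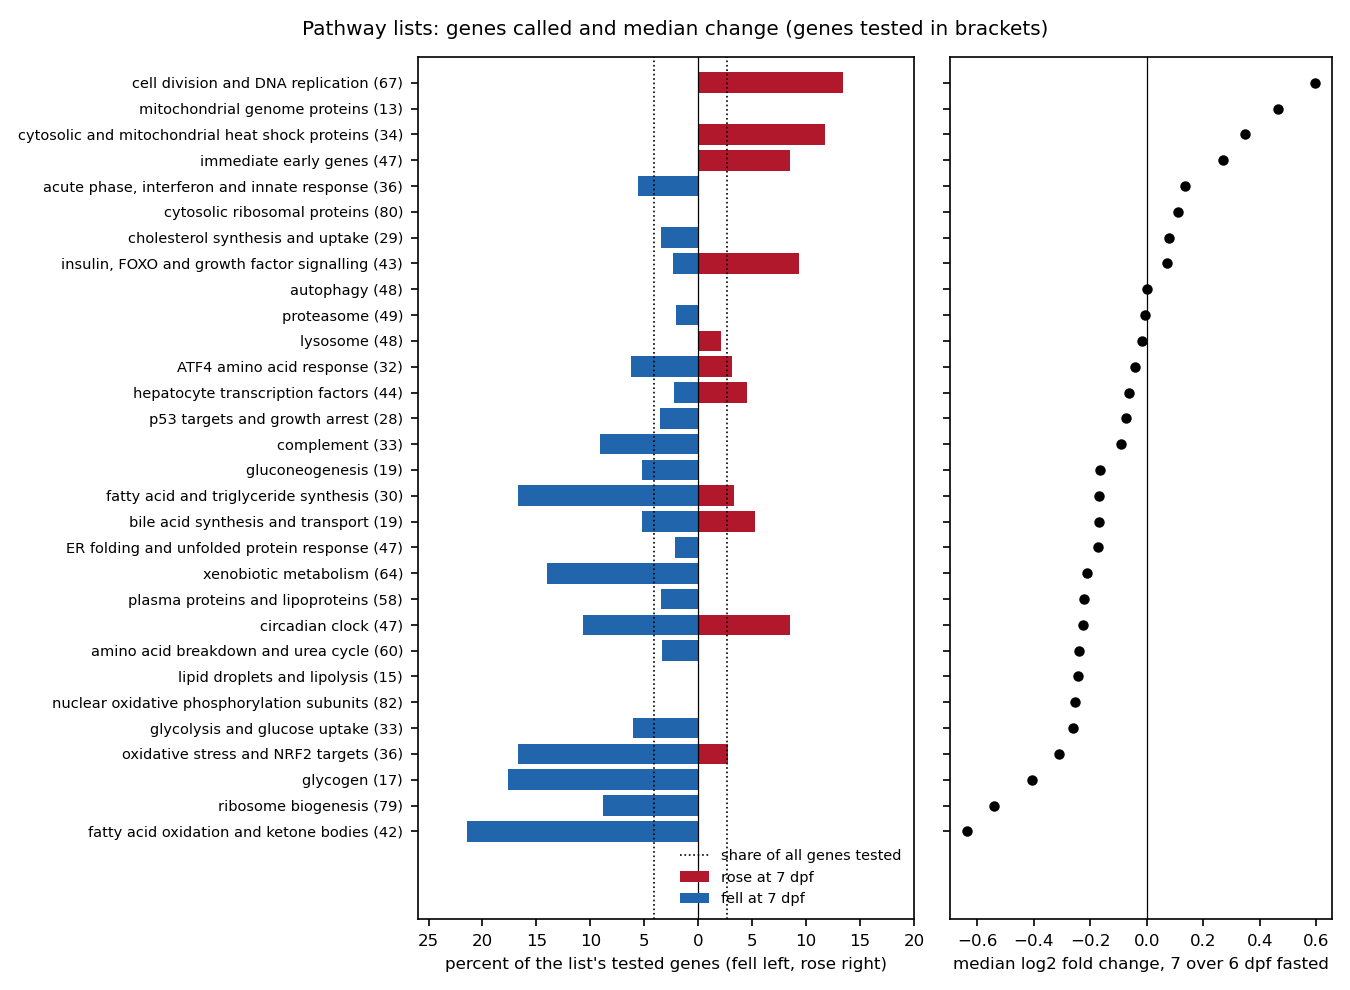
Left, percent of the tested genes of each of the 30 pathway lists that fell (bars to the left) or rose (bars to the right) at 7 dpf, with dotted lines at the shares over all genes tested, 4.12% and 2.69%; right, the list's median log2 fold change. Fatty acid oxidation lies lowest with a median of -0.64 and 9 of 42 fallen, and cell division highest with 0.59 and 9 of 67 risen.

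To ask whether the step from 6 to 7 dpf without food differs from a day of normal development, it was tested against the step from 4 to 5 dpf, in which no larva was labelled as fasted. The 2 steps use separate libraries. Their difference passed the same limits for 2930 genes (16.5%), of which 1236 (6.94%) moved more upward, or less downward, in the fasted step and 1694 (9.52%) more downward or less upward. The titles of the 4 and 5 dpf libraries name age but not food, so the normal step is not shown to be a fed one. The steps also differ in age, which cannot be told apart from food. With library sizes alone as the scaling, the median difference over all genes was 0.30, against -0.09, and the split 2509 and 1017, or 71.2% upward against 42.2%.

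Genes of cell division had a median difference of 3.08, the highest of the 44 lists, and skin markers the lowest, -3.80, with 24 of 41 called lower in the fasted step. Of 67 cell division genes, 9 rose and 0 fell in the fasted step (median 0.59), against 0 that rose and 64 that fell in the normal one (median -2.49). Over all 17799 genes tested, 1324 rose and 1321 fell in the normal step, against 478 and 734 in the fasted one. The difference was called for 55 cell division genes with a higher fasted step and 0 with a lower one. In the 4 compared libraries of 6 and 7 dpf alone, only 43 of the list passed the filter on low counts. The rest were tested only through other groups, such as 4 dpf, where the list took 0.181 and 0.151% of counts. Their higher fasted step may therefore be partly built in by the filter. rrm1 had a log2 change of 1.25 in the fasted step and -2.84 in the normal one, a difference of 4.09 ± 0.26 (adjusted p = 8.99e-09), at levels of 58.7 and 50.3 CPM at 4 dpf, 6.35 and 8.87 CPM at 5 dpf, 3.12 and 2.76 CPM at 6 dpf and 5.76 and 8.31 CPM at 7 dpf. The difference was 3.36 ± 0.23 for the histone chaperone subunit ssrp1a. The chaperone hsp90b1 of the endoplasmic reticulum had log2 changes of -0.04 in the fasted step and -3.05 in the normal one, a difference of 3.01 ± 0.20. Its list had 22 of 47 genes with a higher fasted step and 0 with a lower one, the proteasome 20 of 49 and 0, and cholesterol synthesis 16 of 29 and 1. Scaled by library size alone these became 34 and 0, 39 and 0, and 19 and 0. In these 3 lists the falls were mostly in the normal step, with 1 gene each that fell between 6 and 7 dpf, against 27, 22 and 19 between 4 and 5 dpf.

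In the other direction, xenobiotic metabolism had 30 of 64 genes with a lower fasted step and 2 with a higher one, plasma proteins 21 of 58 and 0, amino acid breakdown 21 of 60 and 1, and the circadian clock 23 of 47 and 6. Scaled by library size alone these became 20 and 4, 11 and 0, 12 and 3, and 18 and 10. cyp2ad2 had log2 changes of -1.50 in the fasted step and 1.52 in the normal one, a difference of -3.01 ± 0.18 (adjusted p = 5.56e-09). The plasma glycoprotein ahsg1 (-3.24 ± 0.19) and the uridine phosphorylase upp2 (-3.23 ± 0.19) had changes of -0.05 each in the fasted step and 3.19 and 3.18 in the normal one. Fatty acid oxidation had 11 of 42 genes with a lower fasted step and 2 with a higher one (4 and 2 with library size alone). Ribosome biogenesis, with medians of -0.54 in the fasted step and -0.41 in the normal one, had 5 of 79 with a lower fasted step and 0 with a higher one. With library size alone it had 3 and 2, and its median difference was 0.24 instead of -0.16. Endothelial markers had positive medians in both steps (0.87 and 0.56), and the difference was called for 1 of 29, with a higher fasted step (median difference 0.42), and with library size alone for 8 (0.81).

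**Figure D5:**
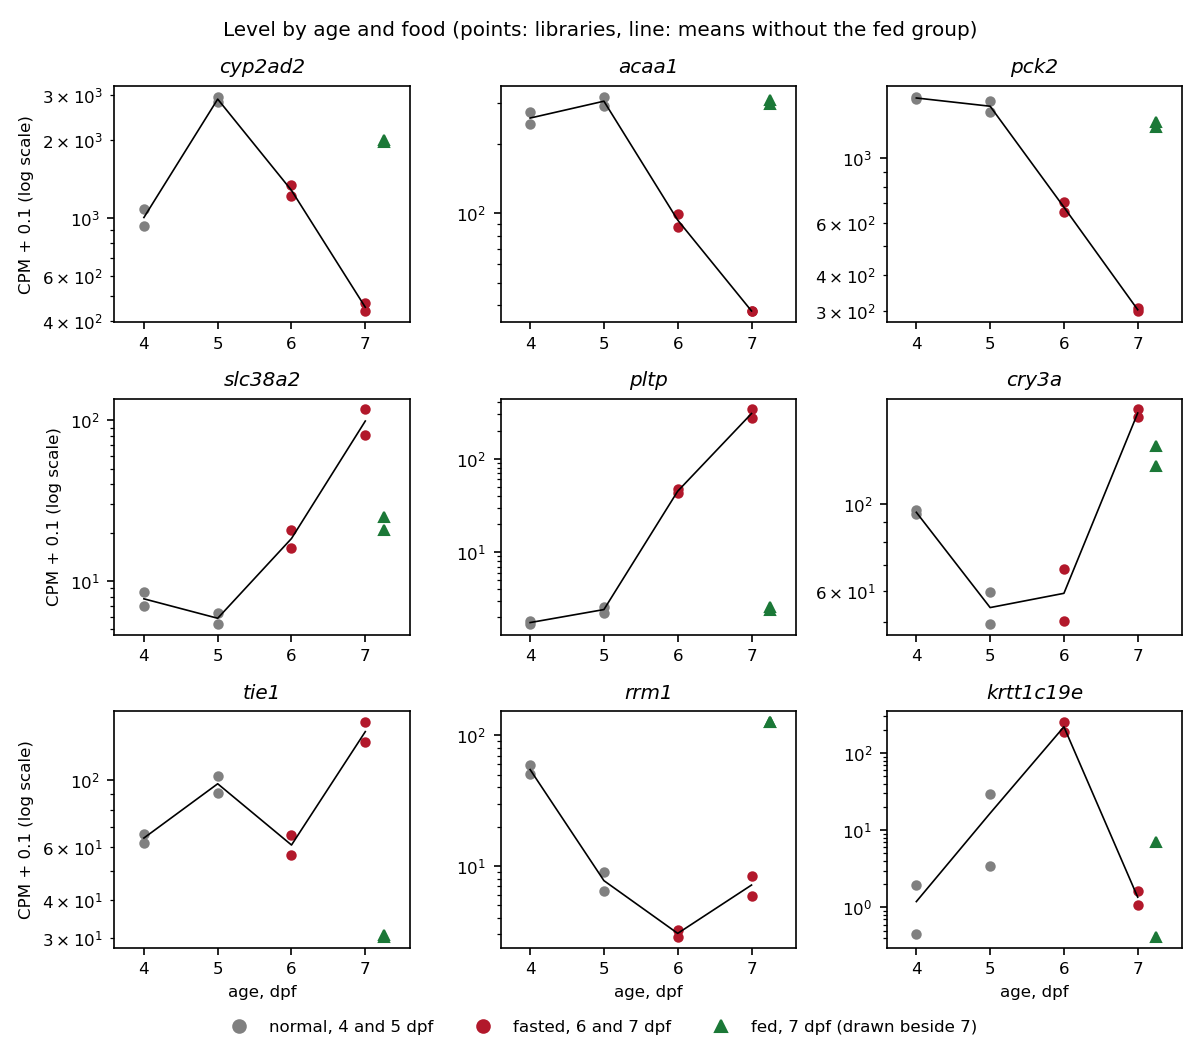
CPM + 0.1 on log axes for 9 genes at 4, 5, 6 and 7 dpf (points are libraries, the line joins the means; grey normal, red fasted), with fed larvae at 7 dpf as triangles beside. At 7 dpf acaa1 stood at 37.8 and 37.5 CPM in fasted and 309 and 296 CPM in fed larvae, and pck2 at 299.5 and 308 CPM in fasted and 1329 and 1279 CPM in fed larvae. pltp was higher in fasted larvae, and krtt1c19e was high in the 6 dpf libraries (187 and 252 CPM).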

How the data were processed

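Each library was made from dissected livers of 30 larvae, per the labels, with a directional Illumina RNA library kit. The deposited table holds whole-number gene counts made by the authors with HISAT2 and featureCounts on GRCz11, per the submitters' processing notes. The sources used here name no versions, annotation or strand setting. The 6 dpf fasted columns are headed as controls and were tied to their libraries by the labels' descriptions. The authors' own comparison used iDEP 0.951, per the series design text. Of 32058 features, 17799 passed the filter by group and 6166 had 0 counts throughout. Counts were scaled by TMM and tested in edgeR 4.0.16 (R 4.3.3, limma 3.58.1) by the quasi-likelihood test in a model with 1 coefficient for each of 8 groups, which leaves 8 residual degrees of freedom. Benjamini-Hochberg adjustment ran across the 17799 genes, and a gene was called at an adjusted p under 0.1 and at least 2-fold. Fold changes are on the log2 scale with SE. The 4 libraries held 20480078 to 25366839 counts, and 3 counts correspond to 0.133 to 0.154 CPM in one library, a floor that covers counting error only. Of counts from 1 to 50, 72.6 to 77.8% were even in these libraries, so both mates of a pair may have been counted. A floor of 3 counts may then stand for fewer fragments, and halved counts were run for this reason.

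Gene names come from the table itself, whose 531 repeated symbols were passed over where genes were ranked by p or fold change. Symbols containing a colon or starting with si, zgc, im, LOC, CABZ or ENSDARG, mostly clone or locus names, were passed over as well. Named genes were the 8 with the smallest p and the 8 with the largest fold change (at 10 CPM or more in the higher group) in each direction, up to 6 called and the 2 most abundant members of each list, and 3 per direction for the difference between steps. The 30 pathway lists, 14 marker lists and this rule were chosen with earlier results of these data known, and list counts cover the members that passed the filter. Alternatives were other scaling, no filter, DESeq2 1.42.0, the compared libraries alone, halved counts, a limit of 0.05, a replicate block, marker scores, GCaMP livers at 6 dpf, and each library left out, where the lone library left in a group is assumed to vary like the others. The model was also run on data with known changes, simulated from its own fitted levels and spread. Such data cannot show whether its error rate holds for these pools. Sequences and coordinates were not used here.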

Additional observations from a re-analysis of the deposited data

Results flagged for a closer look

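The step from 6 to 7 dpf without food differed from the step from 4 to 5 dpf for 2930 genes, by the test of the difference itself (edgeR, Benjamini-Hochberg). Of the genes named for this test, 3 had a higher fasted step, with log2 differences of 4.09 for rrm1, 3.01 for hsp90b1 and 3.36 for ssrp1a. The other 3 had a lower fasted step, with log2 differences of -3.01 for cyp2ad2, -3.24 for ahsg1 and -3.23 for upp2. EGFP, the additional feature in the count table, had 0 counts in both libraries of 7 dpf fasted wild type, against 38 in each of the 2 libraries of 6 dpf fasted wild type, which carry no such transgene by their labels. The GCaMP libraries had 136106 and 43968.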

How the results depend on the processing

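Between 7 and 6 dpf fasted livers 1212 genes were called, 478 higher and 734 lower. With marker scores for skin, pancreas and red blood cells in the model this became 517 genes, 149 higher and 368 lower, of which 262 were among the 1212 with the same sign. With 1 library left out a group rests on a single library, so those totals are not given. Many named genes then lost their calls, as given with their values above. Under the other settings the count stayed within 1.5 times, at 1233 with DESeq2, 1205 with its size factors, 1155 with library size alone, 1559 without a filter, 1368 in the 4 libraries alone (996 shared), 1254 with halved counts, 930 at an adjusted p under 0.05, 1495 against GCaMP livers (664 shared), 1400 against the mean of both 6 dpf groups and 979 with the skin score alone, chosen after seeing the data (653 shared). The difference between the 2 steps had 2930 genes, 600 with marker scores (204 higher, 396 lower), and 2509 higher and 1017 lower with library size alone. The cause of these changes was not tested. Among the named genes called between 7 and 6 dpf fasted livers, mid1ip1a changed sign (1.04 with marker scores and 0.11 with the skin score). So did mad2l1 (-0.11 against GCaMP livers), cela1.3 (-0.85 against GCaMP livers), cela1.2 (-0.64 with marker scores, -0.72 against GCaMP livers) and spink4 (-0.32 against GCaMP livers). Sign changes of named genes called in neither fit are not listed. The replicate block gave 1175 and 2856 genes; same-numbered libraries did not deviate together (r = -0.0675 across genes between the 2 fasted groups, and over 0.1 in 2 of 28 pairs of groups), so the numbers are not taken to pair the samples. Genes below 1 CPM rest on few counts.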

Other observations

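Several genes outside the rule for named genes, chosen after their values were seen, were abundant or changed strongly. aldh1l1, which oxidizes formyl-tetrahydrofolate, fell to 1511 and 1811 CPM at 7 dpf, against 3870.3 and 3434 CPM at 6 dpf (-1.14 ± 0.12, adjusted p = 5.93e-06), and was the one gene averaging over 1000 CPM that fell. sardh (-1.62 ± 0.15), mthfd1a (-1.98 ± 0.20) and mtr (-1.10 ± 0.16) also fell. The peroxisomal enzyme phyh, which starts the breakdown of branched phytanic acid, fell to 218 and 232 CPM at 7 dpf, against 543 and 459 CPM at 6 dpf (-1.16 ± 0.12), and stood at 784 and 781 CPM in fed larvae at 7 dpf. Ketohexokinase khk, the first enzyme of fructose use, had a log2 change of -1.96 ± 0.17 (adjusted p = 9.07e-07). The deiodinase dio1 fell (-1.09 ± 0.11), and cyp27b1, known in mammals for the activation of vitamin D, fell to 8.33 and 4.56 CPM at 7 dpf, against 71.0 and 77.3 CPM at 6 dpf.

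Among genes that rose, PPP1R3G, a glycogen-targeting subunit of protein phosphatase 1, had 254 and 204 CPM at 7 dpf and 85.0 and 91.9 CPM at 6 dpf (1.37 ± 0.22). The carrier slc16a6b had 18.5 and 24.2 CPM at 7 dpf and 7.07 and 5.63 CPM at 6 dpf (1.74 ± 0.32), and the signalling ligand dhh 26.4 and 29.6 CPM at 7 dpf and 8.54 and 10.4 CPM at 6 dpf (1.56 ± 0.18).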
